A study of Mus musculus with 42 samples.

Results

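This report describes what loss of Tsc2 in kidney epithelium did to the RNA of the kidney in mice that had received only vehicle, by setting 3 Tsc2 KO kidneys against 3 control kidneys. The 6 libraries were chosen by their labels, KspCre Tsc2 KO with vehicle and KspCre control with vehicle, out of 42 in the series. KspCre drives Cre recombinase from the promoter of Cdh16, a cadherin of kidney tubule epithelium, so that other cells of the organ keep Tsc2. The study gives the controls of the vehicle experiment as Cre-negative mice. All mice were of C57BL/6 background and were taken at P50, and their libraries were female by expression. Both groups had received 11 vehicle injections, 3 per week from P25, in a rapamycin experiment. Its drug-treated mice, and its mice that lack both Tsc2 and Tfeb, given vehicle or drug, are not compared here. Libraries of all these mice entered the fit and its estimate of the spread. RNA came from pieces of whole kidney and holds all cell types of the organ.

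TSC2 is a subunit of the TSC complex, which keeps the small GTPase RHEB inactive and thereby restrains mTORC1, a kinase complex at the lysosome surface that promotes growth and restrains lysosome biogenesis. TFEB and TFE3, transcription factors of the MiT/TFE family, drive genes of the lysosome and of the proton pump that acidifies it, through a short DNA motif that contains CACGTG. In tuberous sclerosis complex, the human disease caused by loss of TSC1 or TSC2, kidneys form cysts and tumours.

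Reads counted on genes ran from 17326309 to 20077360 per library. Squared differences between libraries of 1 group were on average 24.7 to 55.7 times those of counting noise, a mean that abundant genes can dominate. Spread between libraries thus adds to counting noise in the values below. Kidney tubule markers were present in all 6 libraries. Transcripts of other tissues were present in some of them. The summed level of 11 adrenal cortex markers was 2000 FPKM (fragments per kilobase of gene and per unit of library size) in Tsc2 KO 1, 54.7 in Tsc2 KO 2 and 4.92 in Tsc2 KO 3, against 4.15 to 9.90 in the controls. For 12 adipose markers it was 1160 and 1070 in controls 1 and 2, against 46.0 in control 3 and 74.4 to 266 in the Tsc2 KO kidneys. Counts of calls that fell or rose by over 1.5 times without Tsc2 KO 1 and 2 are therefore given beside those of all libraries. That setting leaves Tsc2 KO 3 alone in its group and takes its spread from the other groups of the fit. Cyp21a1, the adrenal 21-hydroxylase, had no read in any control and stood at 422, 13.9 and 0.0237 FPKM in the Tsc2 KO kidneys. The 7 adrenal cortex markers that were called increased with all libraries were not called in that fit.

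The targeted gene was lower in each Tsc2 KO library. Tsc2 (ENSMUSG00000002496, chr17:24595816-24632630, minus strand, mm10) stood at 8.59, 9.65 and 9.81 FPKM in the control kidneys. In the Tsc2 KO kidneys the values were 4.47, 3.92 and 3.80. The groups did not overlap, and Tsc2 fell by 1.202 ± 0.10 (SE) on the log2 scale (edgeR adjusted p = 3.53e-07). Residual reads cannot be told apart here as transcripts of cells without Cre or as remaining parts of the recombined gene.

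Loss of Tsc2 moved a large part of the kidney's RNA. Of 17027 genes tested, 8098 reached a mean of 5 FPKM in at least 1 group, and a gene was called when it also had an edgeR adjusted p of 0.05 or lower. By this rule 1929 genes (23.8%) increased and 1995 (24.6%) decreased. Counts of called members in the gene lists below stand against these shares. The change was at least 2-fold for 677 increased and 812 decreased genes and at least 4-fold for 212 and 296. All 3 Tsc2 KO kidneys lay above all 3 controls for 2281 of the genes that reached the minimum (28.2%) and below them for 2283 (28.2%). With Tsc2 KO 3 alone against the controls, 1021 genes (12.7% of 8065) increased and 1123 (13.9%) decreased, of which 982 and 1111 were among those called with all 6 libraries. Of the genes called increased, 4 had the opposite sign without Tsc2 KO 1 and 2, and these were the adrenal genes Star, Cyp11a1, Akr1b7 and Mc2r.

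**Figure D1:**
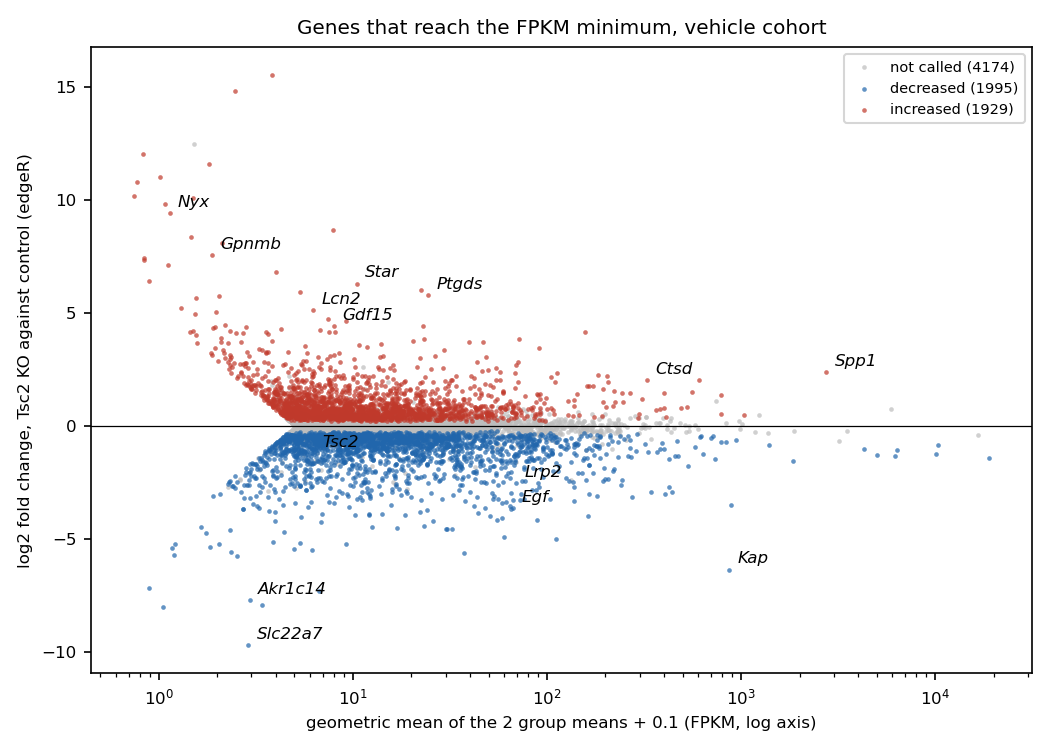
Log2 fold change of Tsc2 KO vehicle against control vehicle (vertical axis) against the geometric mean FPKM of both groups with 0.1 added (horizontal axis, log scale), 1 point per gene that reached 5 FPKM, with called genes coloured. Called genes lie on both sides of 0 over the whole range of levels, 1929 above and 1995 below.

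Of the 10 genes that increased most, Ptgds alone was above 2 FPKM in any control kidney. Meltf, which encodes melanotransferrin, a membrane-bound iron-binding relative of transferrin, had no read in any control and 1.47, 7.73 and 11.0 FPKM in the Tsc2 KO kidneys. Counted against a floor of 3 reads over the control group, it was at least 490-fold higher. Matn1, for the cartilage matrix protein matrilin 1, had no control read either and reached 0.581, 7.46 and 9.62 FPKM, which is at least 209-fold higher by the same floor. In both genes Tsc2 KO 1 was the lowest of the Tsc2 KO kidneys. Nyx, for the leucine-rich repeat protein nyctalopin, rose from 0.0146 ± 0.0173 FPKM (mean ± SD, n = 3) to 11.2 ± 2.76, and the predicted gene Gm9732 rose from 0.0830 ± 0.0690 to 24.1 ± 10.5.

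Gpnmb, a glycoprotein of lysosomes and melanosomes (ENSMUSG00000029816, chr6:49036546-49070929, plus strand), was even across the Tsc2 KO kidneys. It stood at 0.0645, 0.188 and 0.0284 FPKM in the controls and at 18.7, 17.0 and 18.4 in the Tsc2 KO kidneys. Every Tsc2 KO library was far above every control, with a log2 fold change of 7.57 ± 0.91 (edgeR adjusted p = 9.37e-06). Gpnmb has a log2 fold change of 7.59 with Tsc2 KO 3 alone.

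Enzymes of prostaglandin D2 synthesis were both among the 10 largest increases. Ptgds, the lipocalin-type synthase, stood at 4.58, 2.29 and 2.77 FPKM in the controls and at 76.5, 180.6 and 280.3 in the Tsc2 KO kidneys. Hpgds, the haematopoietic synthase, rose from 0.165 ± 0.0584 FPKM to 6.28 ± 1.57. Neither gene overlapped between the groups, with log2 fold changes of 5.79 ± 0.65 and 5.25 ± 0.51 (edgeR adjusted p = 4.89e-06 and 1.20e-06). The list was completed by Rnase1, a secreted ribonuclease, from 0.330 ± 0.426 to 37.6 ± 4.54 FPKM, by S100a14, a calcium-binding protein of epithelia, from 0.623 ± 0.346 to 39.1 ± 12.01, and by Lcn2, described below with injury genes.

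Among the 10 genes that decreased most, Kap and Slc22a7 were on the list of markers of the proximal tubule, the segment that reclaims most of the filtrate. Kap, the kidney androgen-regulated protein, which is among the most abundant mouse kidney transcripts, stood at 10160, 5532 and 7815 FPKM in the controls and at 12.02, 80.1 and 197 in the Tsc2 KO kidneys. Slc22a7, an organic anion transporter of the basolateral membrane, stood at 58.7, 51.0 and 47.1 FPKM in the controls and was at 0, 0.0839 and 0.0967 in the Tsc2 KO kidneys. The groups were far apart for both, and Tsc2 KO 1 was the lowest of all. Their log2 fold changes were -6.34 ± 0.70 and -9.67 ± 0.90 (edgeR adjusted p = 4.29e-06 and 7.85e-07).

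Another organic anion transporter, Slc22a19, fell from 42.2 ± 9.57 to 0.171 ± 0.149 FPKM, and the steroid-metabolising aldo-keto reductase Akr1c14 fell from 33.0 ± 7.39 to 0.160 ± 0.0814. Dnase1, a secreted endonuclease, fell from 258 ± 63.4 to 5.34 ± 3.16 FPKM. Also in this group were C8a (a subunit of the complement membrane attack complex), Bhmt (which remethylates homocysteine with betaine), Mfsd2a (a lysophospholipid transporter) and the cytochromes P450 Cyp2d12 and Cyp2a4. Control levels of these 5 genes ran from 5.69 ± 0.369 FPKM for Bhmt to 39.2 ± 3.89 for Cyp2a4, and their Tsc2 KO levels were 0.0307 ± 0.0284 to 0.863 ± 0.756. The 20 genes in these paragraphs were those with the largest change in each direction whose groups did not overlap and which were also called with Tsc2 KO 3 alone, and none lost its call when any 1 library was left out.

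**Figure D2:**
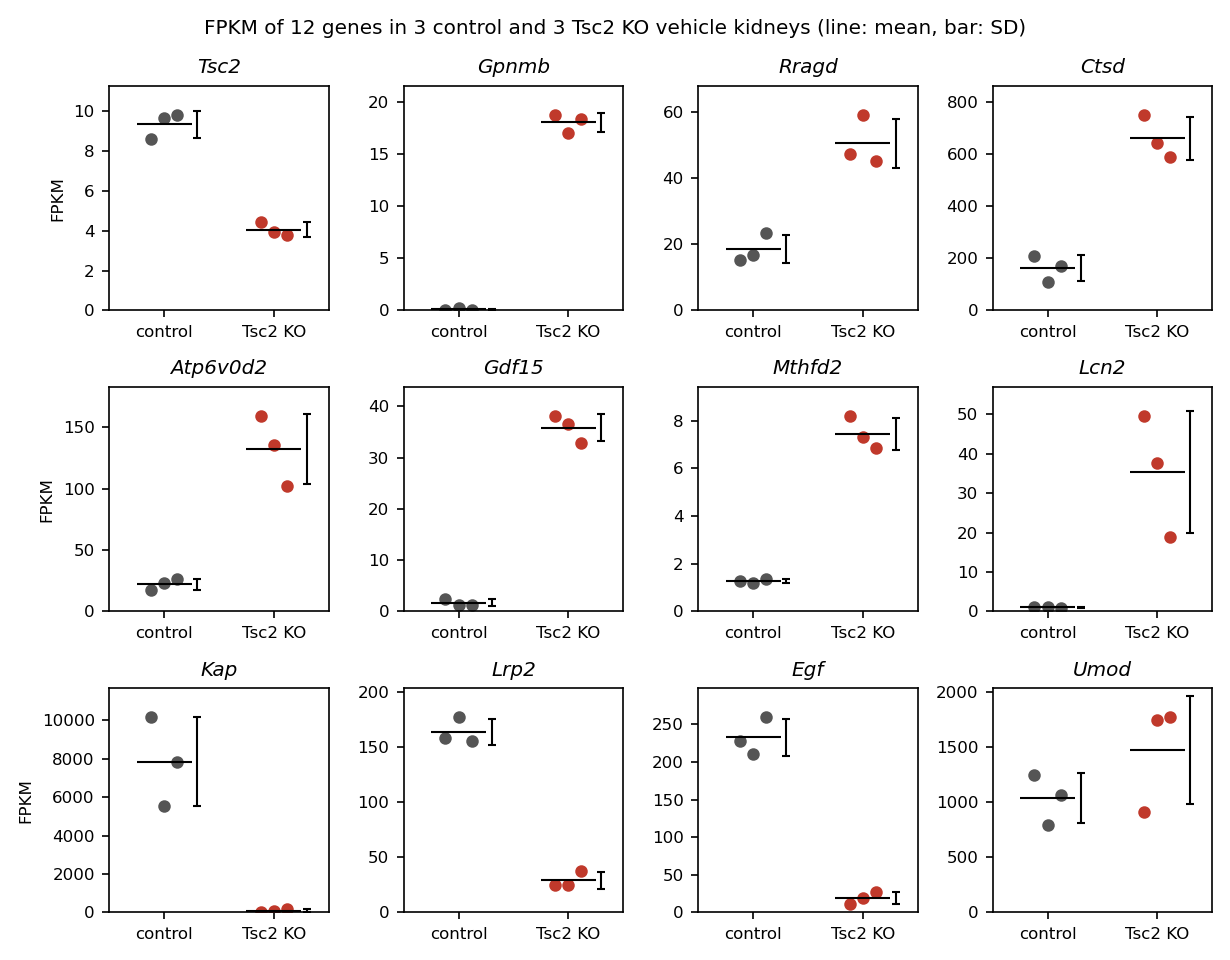
FPKM of 12 genes in each library (vertical axes, linear from 0, 1 panel per gene), with 3 control vehicle and 3 Tsc2 KO vehicle points, a line at the mean and an error bar of 1 SD (n = 3). For Umod the points of both groups overlap, and for the other genes they are apart.

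Genes of the TSC and mTORC1 pathway changed in both directions. Of 23 members, 18 reached the FPKM minimum, 10 increased and 5 decreased, beside 23.8% and 24.6% of all genes. The median log2 fold change over all tested members was 0.22, against 0.0091 over all genes tested. The increases included negative regulators of mTORC1. Ddit4, which activates the TSC complex under stress, stood at 15.1, 7.82 and 10.2 FPKM in the controls and at 52.9, 50.8 and 45.1 in the Tsc2 KO kidneys. The groups were well apart (log2 fold change 2.17 ± 0.32, edgeR adjusted p = 6.50e-05). Sesn3, a stress-induced sestrin that inhibits mTORC1, rose from 5.86 ± 2.03 to 19.7 ± 4.02 FPKM, and its relative Sesn2, a leucine sensor, from 13.3 ± 1.94 to 27.1 ± 3.41. Mtor itself, the kinase of the complex, fell from 16.9 ± 2.77 to 9.69 ± 0.846 FPKM, and the arginine sensor Castor1 fell from 6.41 ± 2.04 to 2.85 ± 0.731. With Tsc2 KO 3 alone 4 members increased and 2 decreased, against 12.7% and 13.9% of all genes in that setting, and the median was 0.24. Sesn2, Castor1 and Mtor were then not called, at log2 fold changes of 0.87, -1.09 and -0.68 against 1.03, -1.17 and -0.80 with all libraries. Rps6kb1, the S6 kinase, did not pass the test, at 3.82 ± 0.522 FPKM in the controls and 3.57 ± 0.168 in the Tsc2 KO kidneys.

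Rag GTPases and folliculin bring mTORC1 and TFEB together at the lysosome. Of 24 members of this group 15 reached the minimum, 4 increased and 4 decreased, near the 23.8% and 24.6% of all genes, with a median log2 fold change of 0.018. The increases were Rragd, Rragc, Flcn and Lamtor1. Rragd, which encodes RagD, stood at 15.3, 16.9 and 23.3 FPKM in the controls and at 47.4, 59.0 and 45.3 in the Tsc2 KO kidneys. Rragc, for its close relative RagC, stood at 24.8, 28.7 and 26.2 and at 56.9, 41.6 and 43.2 FPKM. For neither gene did the groups overlap, and the log2 fold changes were 1.45 ± 0.20 for Rragd (edgeR adjusted p = 3.04e-05) and 0.83 ± 0.14 for Rragc (edgeR adjusted p = 0.000206). Flcn, for folliculin, which switches RagC and RagD to their active state, rose from 9.25 ± 1.03 to 15.2 ± 2.16 FPKM, and Lamtor1, the Ragulator subunit that anchors the complex to the lysosome, from 19.1 ± 3.59 to 31.4 ± 3.72. The decreases were Lamtor5, Nprl2, Wdr24 and Fnip2, and Lamtor5, another Ragulator subunit, fell from 89.2 ± 3.53 to 47.9 ± 3.87 FPKM.

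The MiT/TFE factors had low RNA levels. Tfeb was the only one of 4 that reached the minimum, at 4.64, 3.89 and 4.70 FPKM in the controls and 6.09, 5.98 and 5.58 in the Tsc2 KO kidneys. The groups did not overlap, but Tfeb did not pass the test (log2 fold change 0.42 ± 0.18, edgeR adjusted p = 0.083). Tfe3 passed the test of counts but stayed under 5 FPKM, at 3.22 ± 0.279 against 4.45 ± 0.284 (log2 fold change 0.47 ± 0.13, edgeR adjusted p = 0.0100), and without Tsc2 KO 1 and 2 it did not pass (edgeR adjusted p = 0.0611).

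Lysosomal genes increased in larger numbers than they decreased in each of 3 lists of lysosomal genes. Among 14 lysosomal proteases, all of which reached the minimum, 8 increased and 2 decreased, with a median log2 fold change of 0.75. Ctsd, the aspartic protease cathepsin D, stood at 208, 108 and 169 FPKM in the controls and at 751, 642 and 591 in the Tsc2 KO kidneys. Each Tsc2 KO library lay well above the highest control (log2 fold change 2.03 ± 0.25, edgeR adjusted p = 1.20e-05). The cysteine cathepsins Ctsb and Ctsl rose from 160 ± 7.69 to 448 ± 115 FPKM and from 88.8 ± 6.45 to 306 ± 74.9. Napsa, an aspartic protease of proximal tubule cells, went the other way, from 940 ± 439 to 126 ± 52.5 FPKM (log2 fold change -2.89 ± 0.34, edgeR adjusted p = 8.60e-06), as did Ctsh, from 41.7 ± 5.01 to 17.4 ± 1.80.

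Among 36 glycosidases, lipid hydrolases and their cofactors, 34 reached the minimum, 14 increased and 3 decreased, with a median log2 fold change of 0.32. Hexa, the alpha subunit of beta-hexosaminidase, which is deficient in Tay-Sachs disease, stood at 28.7, 33.9 and 28.1 FPKM in the controls and at 128, 155 and 175 in the Tsc2 KO kidneys. It was the largest increase of the list, with groups far apart (log2 fold change 2.34 ± 0.23, edgeR adjusted p = 1.43e-06). Psap, the precursor of the saposins that assist sphingolipid breakdown, rose from 488 ± 71.2 to 1262 ± 199 FPKM, and Gla, the galactosidase deficient in Fabry disease, from 2.57 ± 0.256 to 7.22 ± 0.535. Ids, the sulfatase deficient in Hunter syndrome, fell from 20.5 ± 2.12 to 12.1 ± 0.535 FPKM.

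Of 31 lysosomal membrane proteins and transporters, 24 reached the minimum, 12 increased and 1 decreased, with a median log2 fold change of 0.42. Clcn7, a chloride-proton exchanger of the lysosome, stood at 8.81, 8.85 and 9.30 FPKM in the controls and at 19.9, 20.6 and 21.4 in the Tsc2 KO kidneys, and its beta subunit Ostm1 rose from 4.12 ± 0.642 to 9.24 ± 0.704. The replicates of Clcn7 were close together in both groups (log2 fold change 1.2 ± 0.10, edgeR adjusted p = 2.40e-07). The 1 decrease was Cd164, a sialomucin, from 110 ± 9.91 to 70.8 ± 1.67 FPKM. Lamp1 and Lamp2, abundant structural proteins of the lysosome membrane, did not pass the test, Lamp1 at 537 ± 13.8 and 545 ± 56.2 FPKM and Lamp2 at 99.7 ± 9.72 and 77.8 ± 5.64.

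The V-ATPase, the proton pump of lysosomes and of the acid-secreting intercalated cells, had the largest share of increases among these lists. Of 23 subunits and accessory proteins 22 reached the minimum, 15 increased and 2 decreased, with a median log2 fold change of 0.63. Atp6v0d2 stood at 17.4, 23.3 and 26.0 FPKM in the controls and at 159, 136 and 102 in the Tsc2 KO kidneys. Atp6v1g3 stood at 34.5, 14.4 and 32.1 and at 177, 197 and 154 FPKM. Both are subunits that intercalated cells also use, and their log2 fold changes of 2.58 ± 0.22 and 2.70 ± 0.33 (edgeR adjusted p = 2.62e-07 and 1.01e-05) were the largest of the list. Subunits found in most cells also rose, such as Atp6v0b, a proteolipid of the membrane ring, from 67.8 ± 12.6 to 137 ± 11.98 FPKM. The decreases were Atp6v0a4, another intercalated cell subunit, from 83.2 ± 11.99 to 52.5 ± 2.68 FPKM, and Atp6v0e2, and neither was called with Tsc2 KO 3 alone. Their log2 fold changes were then -0.76 and -0.26, against -0.66 and -0.59 with all libraries.

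With Tsc2 KO 3 alone the numbers were smaller, at 5 increased and 2 decreased proteases, 9 and 1 glycosidases and related proteins, 7 and 1 membrane proteins, and 10 and 0 V-ATPase members, and the medians were 0.80, 0.30, 0.42 and 0.56. When controls 1 and 2 were left out as well, which leaves 1 library against 1 and was chosen with the data in view, the increases numbered 4, 8, 3 and 5 in these lists, and 1 in the Rag list, where Rragd, Rragc and Lamtor1 were not called. Macrophages also hold much lysosome, and the summed level of 25 macrophage markers was 93.4 to 109 FPKM in the controls and 310 to 397 in the Tsc2 KO kidneys. Its part in the lysosomal increases was not tested.

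The CACGTG motif was looked for in RefSeq promoters (GRCm38.p6, 250 bases before to 50 after the gene start), reading both strands, which hold the same 6 letters. It was present in 14 of the 42 increased members of the lysosomal, V-ATPase and Rag lists that had a promoter sequence (33.3%). The counts were 1 of 9 decreased members (11.1%) and 13 of 47 members that were not called (27.7%). Among all genes with a promoter sequence, whatever their level in kidney, it was 2187 of 27025 (8.09%). Among the genes of largest change that had a promoter sequence, it was found in 0 of 8 increases and 1 of 8 decreases (12.5%). A match is a description of these letters only. Windows of 30 bases are shown for 4 increases described above, for Cln3, a lysosomal membrane protein that rose from 5.12 ± 0.910 to 8.73 ± 0.325 FPKM, and for the 1 decreased member with the motif, Cd164, with CACGTG in capitals. They lie at chr7:142387908-142387937 (minus strand) for Ctsd, chr4:123917309-123917338 (plus) for Rragc, chr7:101905757-101905786 (plus) for Lamtor1, chr4:117887348-117887377 (minus) for Atp6v0b, chr7:126583340-126583369 (minus) for Cln3 and chr10:41519401-41519430 (plus) for Cd164, all upstream of the RefSeq gene start. The gene spans of the deposited table begin elsewhere, and those of Ctsd, Cln3 and Cd164 reach into or past these windows.
Ctsd: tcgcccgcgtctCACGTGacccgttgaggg
Rragc: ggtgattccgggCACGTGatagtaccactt
Lamtor1: ctgccttcctatCACGTGccgcgggtccgc
Atp6v0b: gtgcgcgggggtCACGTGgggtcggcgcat
Cln3: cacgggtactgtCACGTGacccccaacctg
Cd164: cgccgggctgctCACGTGaccggcgcgcgc

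Autophagy genes showed no common direction. Of 44 members 40 reached the minimum, 11 increased and 8 decreased, near the shares of all genes, with a median log2 fold change of 0.14. Sqstm1, for the cargo receptor p62, stood at 146, 111 and 143 FPKM in the controls and at 280, 273 and 289 in the Tsc2 KO kidneys. The groups were apart (log2 fold change 1.07 ± 0.12, edgeR adjusted p = 5.60e-06). Nbr1, a cargo receptor of related build, fell from 40.8 ± 2.94 to 23.9 ± 0.579 FPKM. In the setting with Tsc2 KO 3 alone 6 members increased and 4 decreased, and the median was 0.00052.

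Targets of ATF4, a transcription factor of the amino acid response that mTORC1 also promotes, and genes of serine and one-carbon metabolism rose in most cases. Of 34 members 27 reached the minimum, 17 increased and 6 decreased, with a median log2 fold change of 1.00. Mthfd2, the mitochondrial enzyme that feeds one-carbon units into purine synthesis, stood at 1.26, 1.201 and 1.36 FPKM in the controls and at 8.18, 7.30 and 6.86 in the Tsc2 KO kidneys. Replicates were tight in both groups (log2 fold change 2.54 ± 0.19, edgeR adjusted p = 1.04e-07).

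Gdf15, a secreted stress cytokine, stood at 2.47, 1.26 and 1.27 FPKM in the controls and at 38.1, 36.6 and 32.9 in the Tsc2 KO kidneys, the largest increase of the list (log2 fold change 4.42 ± 0.51, edgeR adjusted p = 6.06e-06). The serine synthesis enzymes Phgdh and Psat1 rose from 9.14 ± 2.58 to 37.0 ± 10.5 and from 7.06 ± 1.37 to 31.6 ± 8.65 FPKM, and the asparagine synthetase Asns from 2.78 ± 1.91 to 10.8 ± 1.70. Atf4 rose from 29.0 ± 9.63 to 56.0 ± 6.64 FPKM, and its relative Atf5 from 5.99 ± 2.11 to 33.3 ± 3.21. The largest decreases of the list were in Cth, Shmt2 and Cbs, which encode enzymes of amino acid metabolism. Cth and Cbs, of the transsulfuration of homocysteine to cysteine, fell from 92.8 ± 13.6 to 13.4 ± 2.596 and from 47.8 ± 4.79 to 16.2 ± 4.58 FPKM, and Shmt2, the mitochondrial serine hydroxymethyltransferase, from 63.8 ± 5.86 to 20.0 ± 2.57.

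**Figure D3:**
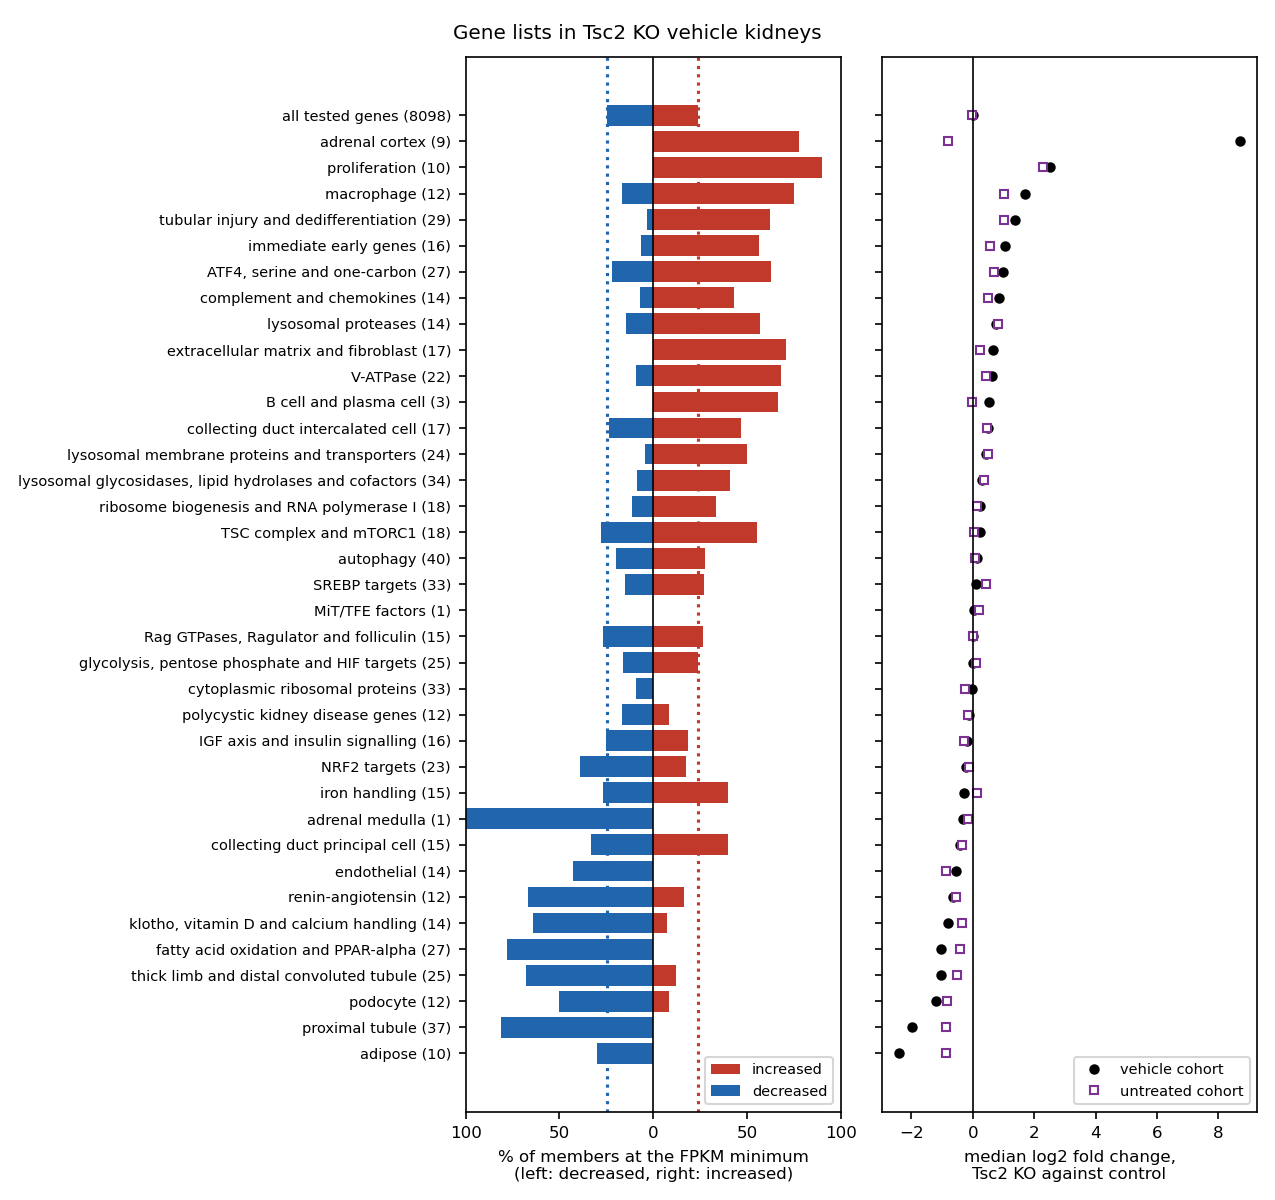
Gene lists (vertical axis, number of members at the FPKM minimum in brackets) with the percentage of those called increased (bars to the right) or decreased (to the left) in Tsc2 KO vehicle kidneys, dotted lines at 23.8% and 24.6% for all genes, and on the right the median log2 fold change of tested members with vehicle (filled) and untreated (open). Proximal tubule and fatty acid oxidation lists have bars to the left alone, with medians of -1.99 and -1.05 with vehicle.

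Most genes of fatty acid oxidation and of its regulator PPAR-alpha fell. Of 30 members 27 reached the minimum, 21 decreased, and 0 of the 30 were higher in the Tsc2 KO group. The median log2 fold change was -1.05. Cyp4a14, a fatty acid omega-hydroxylase, stood at 211, 249 and 253 FPKM in the controls and at 15.3, 8.49 and 19.2 in the Tsc2 KO kidneys. Acadm, the medium-chain acyl-CoA dehydrogenase of mitochondria, stood at 337, 251 and 236 and at 50.5, 48.6 and 71.6 FPKM. Neither gene's groups came near each other, and the log2 fold changes were -4.05 ± 0.37 and -2.27 ± 0.17 (edgeR adjusted p = 5.41e-07 and 8.55e-08). Ehhadh, of the peroxisomal pathway, fell from 221 ± 15.6 to 31.8 ± 6.55 FPKM and Ppara itself from 20.8 ± 4.71 to 6.27 ± 0.931. With Tsc2 KO 3 alone 15 members decreased. The share of reads on mitochondrial genes was 10.2% to 12.5% in the controls and 5.03% to 7.30% in the Tsc2 KO kidneys.

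Targets of SREBP, the factors that drive sterol and fatty acid synthesis, had 9 increased and 5 decreased of 33 that reached the minimum, beside 23.8% and 24.6% of all genes, and a median log2 fold change of 0.11. Of these targets 7 increased and 3 decreased with Tsc2 KO 3 alone. The increases included the desaturase Scd2, from 26.5 ± 4.72 to 112 ± 39.4. Cyp51, of cholesterol synthesis, fell from 85.9 ± 18.6 to 21.5 ± 2.68 FPKM. Fasn, the fatty acid synthase, could not be read in this comparison, since controls 1 and 2 stood at 141 and 87.3 FPKM and control 3 at 8.47, in the order of their adipose markers, against 9.82, 14.3 and 44.4 in the Tsc2 KO kidneys, and it did not pass the test. Scd1, which passed it, had a like split, with controls at 748, 580 and 237 FPKM and Tsc2 KO kidneys at 10.7, 41.5 and 134. Without controls 1 and 2, an alternative chosen after seeing the data, Scd1 was not called (log2 fold change -1.93, edgeR adjusted p = 0.0988). The part of adipose tissue in either gene was not tested.

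Genes of glycolysis, of the pentose phosphate pathway and of the hypoxia response made up 1 list. Of its 25 members that reached the minimum 6 increased and 4 decreased, beside 23.8% and 24.6% of all genes, with a median log2 fold change of 0.0086. The numbers were 2 and 2 with Tsc2 KO 3 alone, and the median was 0.16. Pfkp, a phosphofructokinase, rose from 5.12 ± 0.847 to 14.8 ± 0.604 FPKM, and the pentose phosphate enzyme Pgd from 16.8 ± 2.59 to 30.4 ± 4.75. Vegfa, the endothelial growth factor and a target of hypoxia-inducible factors, fell from 40.9 ± 4.66 to 29.8 ± 2.15 FPKM. Slc2a1, the glucose transporter GLUT1, did not pass the test, at 19.8 ± 2.42 and 23.8 ± 6.81 FPKM. Cytoplasmic ribosomal protein genes, whose translation mTORC1 controls, had 0 increased and 3 decreased of 33 (median log2 fold change -0.028; 1 decreased with Tsc2 KO 3 alone), and Rplp0 and Rps6 did not pass the test, with edgeR adjusted p of 0.56 and 0.22.

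Markers of kidney cell types were compared next. In RNA of whole tissue, fewer cells of a type and less RNA per cell cannot be told apart. Of 41 proximal tubule markers 37 reached the minimum, 30 decreased and 0 increased, beside 24.6% and 23.8% of all genes. Lower in every Tsc2 KO kidney than in any control were 34 of the 41, against 3920 of all 17027 genes tested. The median log2 fold change of the proximal tubule markers was -1.99. Their summed level was 19300, 14800 and 16800 FPKM in the controls and 2300, 1840 and 3020 in the Tsc2 KO kidneys, of which Kap was a large part in the controls. Lrp2, for the endocytic receptor megalin, stood at 159, 177 and 155 FPKM in the controls and at 25.03, 24.5 and 37.4 in the Tsc2 KO kidneys, and its partner Cubn, cubilin, fell from 45.3 ± 4.62 to 7.93 ± 1.56. Slc34a1, the main phosphate transporter, fell from 972 ± 129 to 292 ± 88.5 FPKM, and Hnf4a, a transcription factor that defines proximal tubule cells, from 160 ± 18.3 to 70.5 ± 16.0.

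The decreases of this segment were of unequal size. Among the 30 markers that fell, log2 fold changes ran from -9.67 for Slc22a7 to -0.79 for Slc13a1, a sulfate transporter. They were -2.50 ± 0.18 for Lrp2 (edgeR adjusted p = 7.76e-08), -1.74 ± 0.24 for Slc34a1 (edgeR adjusted p = 3.48e-05) and -1.19 ± 0.18 for Hnf4a (edgeR adjusted p = 6.96e-05). Pck1, of gluconeogenesis, and Ass1, of arginine synthesis, fell from 1131 ± 294 to 144 ± 80.0 and from 1076 ± 110 to 169 ± 38.6 FPKM. Slc5a2, for the glucose transporter SGLT2, did not pass the test, at 129 ± 12.8 and 84.2 ± 22.2 FPKM (log2 fold change -0.61 ± 0.26, edgeR adjusted p = 0.074). With Tsc2 KO 3 alone 24 members decreased.

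In the thick ascending limb and distal convoluted tubule, segments further along the nephron, 3 of 25 markers increased and 17 decreased, with a median log2 fold change of -1.05. Egf, the epidermal growth factor precursor made in these cells, stood at 229, 211 and 260 FPKM in the controls and at 10.8, 19.3 and 27.2 in the Tsc2 KO kidneys. The groups were far apart (log2 fold change -3.61 ± 0.28, edgeR adjusted p = 1.10e-07). The diuretic targets Slc12a1 and Slc12a3 fell from 354 ± 36.7 to 84.5 ± 29.7 and from 95.9 ± 11.9 to 41.5 ± 2.90 FPKM, and Klk1, the tissue kallikrein, from 2954 ± 365 to 265 ± 58.5. Umod, for uromodulin and the best known marker of the thick limb, did not follow them. It stood at 1241, 791 and 1066 FPKM in the controls and at 910, 1746 and 1767 in the Tsc2 KO kidneys. The groups overlapped and the difference did not pass the test (log2 fold change 0.52 ± 0.23, edgeR adjusted p = 0.090), while with Tsc2 KO 3 alone it was called, at 0.76. Trpv5, a calcium channel of the distal tubule, rose from 11.0 ± 0.587 to 35.1 ± 14.5 FPKM.

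In the collecting duct, markers of intercalated cells moved in both directions. Of 17 markers that reached the minimum 8 increased and 4 decreased, beside 23.8% and 24.6% of all genes. The share of decreases was thus near that of all genes. Over all tested intercalated cell markers the median was 0.48 on the log2 scale. Foxi1, the transcription factor that specifies intercalated cells, stood at 22.7, 15.0 and 25.1 FPKM in the controls and at 104, 147 and 104 in the Tsc2 KO kidneys. Dmrt2, a factor of acid-secreting type A cells, stood at 3.91, 2.80 and 3.65 and at 34.5, 47.6 and 35.9 FPKM. Both rose with no overlap (log2 fold changes 2.50 ± 0.20 and 3.51 ± 0.19, edgeR adjusted p = 1.77e-07 and 5.15e-09), as did Aqp6, an aquaporin of type A cells, from 36.1 ± 7.02 to 139 ± 31.4 FPKM, and Kit, the stem cell factor receptor, from 3.68 ± 0.485 to 14.9 ± 4.26.

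Slc26a4, for pendrin, which marks the base-secreting type B cells, stood at 33.1, 44.7 and 46.5 FPKM in the controls and at 3.86, 6.86 and 9.15 in the Tsc2 KO kidneys. With it fell Slc4a9, a transporter of the same cells, from 30.0 ± 6.32 to 4.58 ± 0.841 FPKM, and Insrr, an alkali-sensing receptor, from 7.72 ± 1.49 to 0.865 ± 0.370. Slc4a1, the type A anion exchanger AE1, did not pass the test, at 17.4 ± 6.34 and 26.7 ± 6.56 FPKM. The list shares 5 members with the V-ATPase list. Among principal cells 6 of 15 markers increased and 5 decreased (median log2 fold change -0.40), beside 23.8% and 24.6% of all genes. Aqp2, the water channel of principal cells, did not pass the test, at 170 ± 23.5 and 129 ± 20.7 FPKM. Only 2 principal cell markers increased and 3 decreased with Tsc2 KO 3 alone, and the median was -2.94e-05.

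Markers of podocytes, which form the filter of the glomerulus, and of endothelial cells were called in part. For podocytes 1 of 12 increased and 6 decreased, with a median log2 fold change of -1.21. Nphs1, for nephrin, stood at 6.02, 4.85 and 6.01 FPKM in the controls and at 0.573, 1.11 and 1.02 in the Tsc2 KO kidneys, and Podxl fell from 64.6 ± 8.66 to 17.3 ± 1.62. For endothelial cells 0 of 14 increased and 6 decreased (median log2 fold change -0.53, and -0.61 with Tsc2 KO 3 alone). Among the decreases was Tek, the angiopoietin receptor, from 10.9 ± 1.60 to 3.80 ± 0.627 FPKM. Counts were 0 and 5 for podocytes and 0 and 2 for endothelial cells with Tsc2 KO 3 alone, where 13.9% of all genes decreased. Without Tsc2 KO 1 and 2 and controls 1 and 2, a setting added with the data in view that sets 1 library against 1, edgeR gave 0 and 4 for podocytes and 0 and 0 for endothelial cells.

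Injury and dedifferentiation genes of the tubule rose more often than they fell. Of 35 members 29 reached the minimum, 18 increased and 1 decreased, and the median log2 fold change was 1.36, against 12 and 0 and a median of 1.08 with Tsc2 KO 3 alone. Lcn2, for the injury marker NGAL, stood at 1.06, 0.998 and 0.940 FPKM in the controls and at 49.5, 37.6 and 18.7 in the Tsc2 KO kidneys. Spp1, osteopontin, stood at 1186, 1209 and 1197 and at 5028, 7335 and 6484 FPKM. Both were raised in all 3 Tsc2 KO kidneys, with Tsc2 KO 3 the lowest for Lcn2 (log2 fold changes 5.14 ± 0.49 and 2.39 ± 0.25, edgeR adjusted p = 9.68e-07 and 2.26e-06).

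Cdkn1a, the cell cycle inhibitor p21, rose from 2.72 ± 0.0832 to 25.4 ± 1.31 FPKM and Sox4, a transcription factor of developing and injured epithelium, from 2.52 ± 0.824 to 21.9 ± 5.17. The fibrinogen chain Fgg rose from 6.04 ± 0.670 to 87.7 ± 17.1 FPKM. Havcr1, for the injury marker KIM-1, did not pass the test, with uneven controls at 0.409, 18.7 and 0.133 FPKM against 4.79, 37.5 and 18.5 (log2 fold change 1.66 ± 1.26, edgeR adjusted p = 0.32). Of 12 genes of polycystic kidney disease that reached the minimum 1 increased and 2 decreased, beside 23.8% and 24.6% of all genes. Pkhd1, for fibrocystin, which is mutated in the recessive disease, stood at 13.5, 16.0 and 15.04 FPKM in the controls and at 4.14, 9.02 and 6.76 in the Tsc2 KO kidneys (log2 fold change -1.16 ± 0.21, edgeR adjusted p = 0.000494). It remained called with Tsc2 KO 3 alone, where Bicc1, which increased, and Glis3, which decreased, were not called. Log2 fold changes of Bicc1 and Glis3 were then 0.48 and -0.57, against 0.58 and -0.49 with all libraries. Pkd1 and Pkd2, of the dominant disease, did not pass the test, with edgeR adjusted p of 0.73 and 0.58.

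Cell cycle genes were higher as well. Of 30 proliferation genes 29 were higher in the Tsc2 KO group, against 8613 of all 17027 genes tested. Against 4174 of all genes tested, 27 of the 30 had every Tsc2 KO kidney above every control. Only 10 reached the FPKM minimum, of which 9 increased, and 19 more passed the test of counts alone, with a median log2 fold change of 2.51. Mki67, which marks cycling cells, stood at 0.407, 0.255 and 0.214 FPKM in the controls and at 2.21, 7.25 and 6.43 in the Tsc2 KO kidneys. Rrm2, a subunit of ribonucleotide reductase, stood at 2.33, 1.41 and 1.76 and at 10.3, 20.4 and 21.0 FPKM. In both genes Tsc2 KO 1 was the lowest of its group but above all controls (log2 fold changes 4.17 ± 0.54 and 3.23 ± 0.29, edgeR adjusted p = 2.01e-05 and 4.49e-07). In the fit with Tsc2 KO 3 alone, whose own level then sets the FPKM minimum, 14 members increased.

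Matrix and macrophage genes were among the higher groups. Some of them, such as Mmp14 and Cd68, reached the FPKM minimum only through the Tsc2 KO group. Of all 31 matrix and fibroblast genes tested 25 were higher in the Tsc2 KO group, and of all 25 macrophage markers 23. Over all 17027 genes tested it was 8613. Of 17 matrix and fibroblast genes that reached the minimum 12 increased and 0 decreased (median log2 fold change over all 31 members 0.67), and 8 increased with Tsc2 KO 3 alone. Mmp14, a membrane-bound metalloprotease, rose from 2.62 ± 0.515 to 16.3 ± 2.76 FPKM, and the basement membrane collagens Col4a1 and Col4a2 from 32.1 ± 8.48 to 82.2 ± 19.9 and from 25.6 ± 5.33 to 70.0 ± 8.71. Of 12 macrophage markers that reached the minimum 9 increased and 2 decreased (median over all 25 members 1.70). Lgals3, galectin 3, stood at 18.2, 14.5 and 17.8 FPKM in the controls and at 148, 134 and 138 in the Tsc2 KO kidneys, and is also made by injured tubule cells. Lyz2 and C1qa, for lysozyme and a complement C1q chain, rose from 11.4 ± 4.15 to 44.1 ± 17.8 and from 9.24 ± 1.46 to 30.0 ± 9.10 FPKM. The receptor Csf1r, which defines the lineage, fell from 12.99 ± 1.83 to 7.42 ± 2.31 FPKM, and Mertk, a receptor for dying cells that other kidney cells also make, from 15.3 ± 1.34 to 5.11 ± 1.11. T cell markers were near 0, with summed levels of 3.10 to 3.93 and 2.47 to 8.60 FPKM, and none of 15 reached the minimum.

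**Figure D4:**
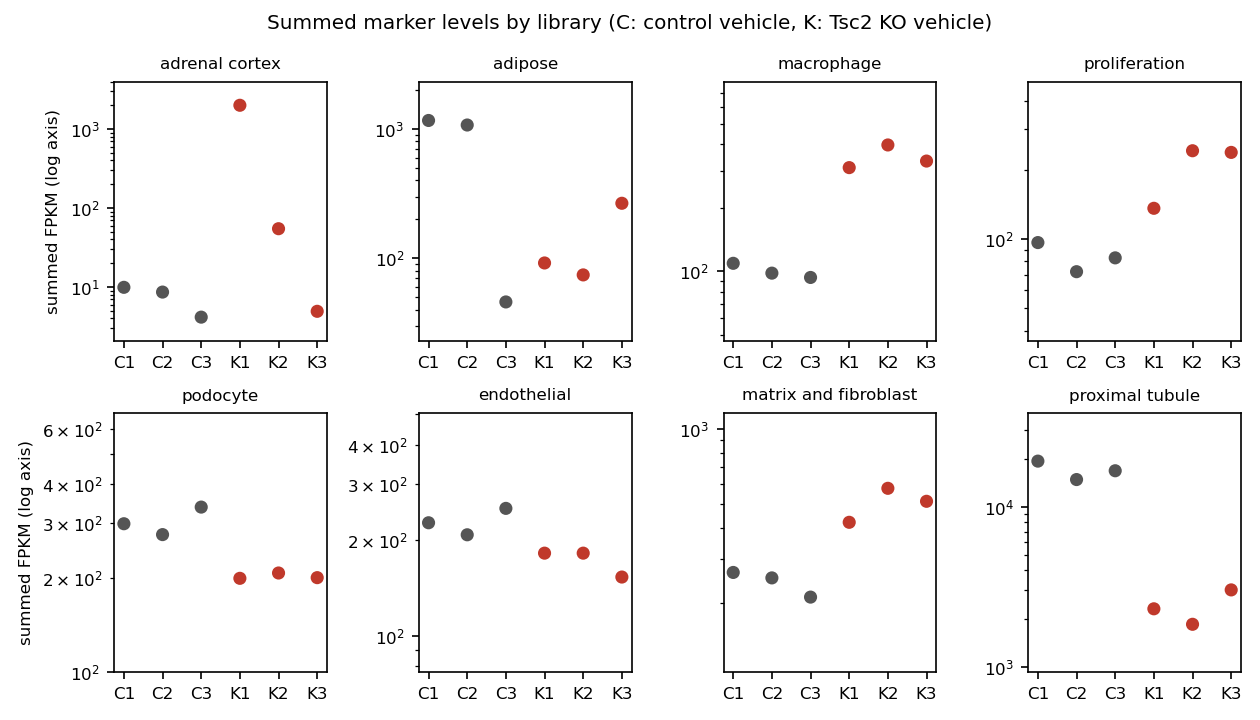
Summed FPKM of the marker lists of cell types and tissues in each library (vertical axis, log scale), with 3 control vehicle and 3 Tsc2 KO vehicle points per list. Adrenal cortex markers stand apart in Tsc2 KO 1 (2000) and Tsc2 KO 2 (54.7), and adipose markers in controls 1 and 2 (1160 and 1070).

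Hormone systems of the kidney were mostly lower. In the renin-angiotensin list 8 of 12 members decreased and 2 increased, with a median log2 fold change of -0.63. Ren1, for renin, stood at 63.2, 64.5 and 134 FPKM in the controls and at 11.3, 8.67 and 7.94 in the Tsc2 KO kidneys, with a log2 fold change of -3.23 ± 0.42 (edgeR adjusted p = 2.13e-05). Ace, the angiotensin-converting enzyme, fell from 40.0 ± 8.60 to 6.79 ± 1.36 FPKM. Of the klotho, vitamin D and calcium list 9 of 14 decreased and 1 increased (median log2 fold change -0.81).

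Kl, for klotho, the co-receptor of the phosphate hormone FGF23, stood at 99.8, 103 and 129 FPKM in the controls and at 13.5, 33.8 and 32.7 in the Tsc2 KO kidneys (log2 fold change -2.05 ± 0.29, edgeR adjusted p = 4.37e-05), without overlap. Pth1r, the parathyroid hormone receptor, fell from 215 ± 14.7 to 54.0 ± 16.3 FPKM, and Calb1, a calcium-binding protein of the distal tubule, from 160 ± 23.6 to 17.2 ± 4.21. In the insulin and IGF list, with 3 increased and 4 decreased of 16, near the shares of all genes, and a median log2 fold change of -0.19, Akt1 rose from 24.3 ± 2.18 to 46.4 ± 7.14 FPKM while the receptor Igf1r fell from 13.9 ± 0.830 to 6.26 ± 1.31.

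An untreated cohort of KspCre mice of the same age, with 3 Tsc2 KO and 3 control kidneys that share no library with the vehicle cohort, allowed the same contrast to be made again. There 729 genes (9.42% of 7736) increased and 676 (8.74%) decreased. Of the genes increased with vehicle 654 also increased untreated, which is 33.9% of the vehicle list and 89.7% of the untreated list. For decreases it was 593 genes, 29.7% and 87.7%. No gene was called in opposite directions. Of 1920 genes increased with vehicle that were tested untreated 1832 had the same sign, and of 1995 decreased genes 1894. Across 7557 genes that reached the minimum in both, Pearson's r of the log2 fold changes was 0.881, given as a description across genes, which are not independent. Changes were larger with vehicle for 1686 of the increased and 1856 of the decreased genes, and the medians of these genes were 0.758 and -0.829 with vehicle against 0.459 and -0.42 untreated. These genes were chosen on their vehicle values.

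**Figure D5:**
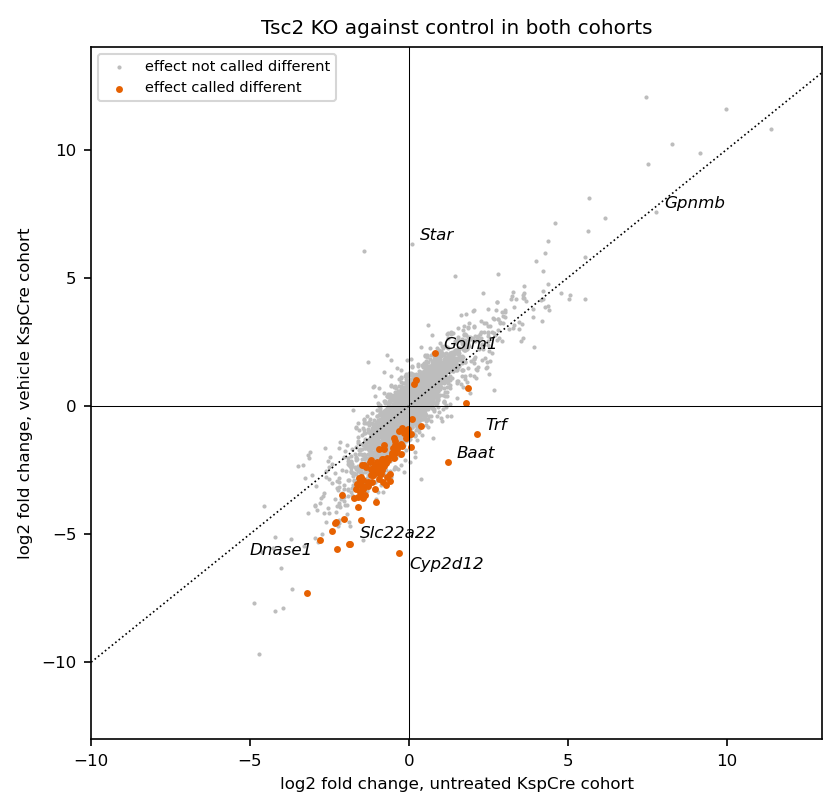
Log2 fold change of Tsc2 KO against control in the vehicle cohort (vertical axis) against the same in the untreated cohort (horizontal axis), 1 point per gene, with genes whose effect was called different between cohorts in colour and a dotted line where both are equal. Most coloured points, 110 of 113, lie below the line.

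Lists of genes were set side by side as well. Median log2 fold changes were -0.86 untreated against -1.99 with vehicle for the proximal tubule, -0.41 against -1.05 for fatty acid oxidation, 1.02 against 1.36 for injury genes and 0.43 against 0.63 for the V-ATPase. For lysosomal proteases they were 0.82 and 0.75, and for glycosidases and related proteins 0.38 and 0.32. Medians were farther from 0 untreated for endothelial markers, at -0.88 against -0.53, and for SREBP targets, at 0.43 against 0.11. Gpnmb had a log2 fold change of 7.76 untreated against 7.57 with vehicle, and Tsc2 of -1.20 in both.

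The difference of the Tsc2 KO effect between cohorts was tested as an interaction in 1 edgeR fit of 30 libraries. It was higher with vehicle for 3 genes (0.0362% of 8279) and lower for 110 (1.33%), of which 107 also decreased within the vehicle cohort and 4 were proximal tubule markers of the list. Cyp2d12 fell from 16.0 ± 4.48 to 0.298 ± 0.107 FPKM with vehicle, while the untreated means were 11.1 in controls and 8.99 in Tsc2 KO kidneys (difference of log2 fold changes -5.44 ± 0.70, edgeR adjusted p = 0.00101). Golm1, for a Golgi membrane protein, rose from 2.62 ± 0.438 to 10.8 ± 1.48 FPKM with vehicle and had means of 3.30 and 5.85 untreated (difference 1.23 ± 0.27, edgeR adjusted p = 0.0308). The count of 113 depended on the method, with 346 by DESeq2 and 56 with the replicate number as a block, and on single libraries. It was 4 without untreated control 3, 6 without untreated Tsc2 KO 3, 17 without untreated control 2, 35 without Tsc2 KO vehicle 1 or 2, 51 and 68 without control vehicle 3 and 1, 75 and 170 without untreated Tsc2 KO 1 and 2, and 233 without Tsc2 KO vehicle 3. Without Tsc2 KO vehicle 1 and 2 together edgeR called 0 genes, with 983 at an unadjusted p under 0.05 (2226 with all libraries). Vehicle treatment, its injections and the cohort cannot be told apart in this comparison.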

How the data were processed

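RNA of mouse kidney tissue was sequenced after poly-A selection, without strand information. The authors deposited a table of whole-number counts per gene, not normalized, and a table of FPKM, adjusted for gene length and for a library size of 1.01 times the TMM effective library size in all 6 libraries. Per the labels, processing notes name HISAT2 2.0.5, STAR 2.6.1d, featureCounts 1.5.0-p3, DESeq2 1.20.0 and mm10, with no roles given. All value columns were mapped (0 left over), and no libraries were duplicates.

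Counts were fitted in R 4.3.3 with edgeR 4.0.16 (filterByExpr, TMM, glmQLFit and glmQLFTest) over the 18 libraries of the 6 vehicle and rapamycin groups without covariates, with Benjamini-Hochberg adjustment over all tested genes. Calls needed an adjusted p up to 0.05 and 5 FPKM, the study's thresholds, with FPKM read here as the mean of either group. Both KspCre cohorts (30 libraries, 10 groups) were joined for the interaction. The code was tested on simulated data. Alternatives were DESeq2 1.42.0, RLE scaling, other filters, a replicate block, an adrenal covariate and leaving out libraries. The members and the 37 gene lists were chosen with earlier results of these data known. Genes named were the 10 largest changes in each direction that did not overlap and were called without Tsc2 KO 1 and 2, up to 3 per list and direction, members needed for their role (picked with their values in view), genes named by the study, the 5 largest differences between cohorts in each direction and adrenal markers. Promoters were read from RefSeq (GRCm38.p6).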

Additional observations from a re-analysis of the deposited data

Results flagged for a closer look

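The Tsc2 KO effect differed between the vehicle and the untreated KspCre cohort by an interaction test (edgeR, 30 libraries) for 3 genes that were higher with vehicle and 110 that were lower, of 8279. Differences of log2 fold change, vehicle minus untreated, were -5.44 for Cyp2d12, -3.55 for Slc22a22, -3.44 for Baat, -3.33 for Dnase1 and -3.26 for Trf. On the higher side they were 1.23 for Golm1, 0.797 for Phf13 and 0.674 for Samd10. Baat, which conjugates bile acids, had means of 4.84 FPKM in control and 11.5 in Tsc2 KO kidneys untreated, against 6.30 ± 2.48 and 1.39 ± 0.495 (SD, n = 3) with vehicle. Trf, for transferrin, stood at 1.32 and 5.81 FPKM untreated and at 3.90 ± 1.10 and 1.80 ± 0.808 with vehicle. Of the 110 genes, 102 had a negative log2 fold change in both cohorts, farther from 0 with vehicle, and 6 had opposite signs. These counts go by sign, whether or not a gene was called. Cyp2d12, for example, was not called untreated (log2 fold change -0.305). The cause was not tested, and the dependence on single libraries is given with the comparison above.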

How the results depend on the processing

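Tsc2 fell under every alternative run, by 1.14 to 1.27 on the log2 scale with 1 library left out. With 1 library left out 1599 to 1846 genes increased and 1645 to 1935 decreased. Counts that moved by over 1.5 times were 3295 increased and 3226 decreased with no FPKM minimum, 1159 increased with 5 FPKM in every library, and 1021 and 1123 without Tsc2 KO 1 and 2. Chosen after seeing the data were 1039 and 1144 without the 4 vehicle libraries with adrenal transcripts (Tsc2 KO 1 and 2 and 2 of mice that also lack Tfeb), 1111 increased without controls 1 and 2, and 628 and 840 without Tsc2 KO 1 and 2 and controls 1 and 2. Of these, 603 and 815 were among the genes called with all libraries. Other settings gave 1416 to 2050 and 1368 to 2116. Genes with a different effect between cohorts numbered 113, 346 with DESeq2, 0 without Tsc2 KO 1 and 2, and 4 to 233 with 1 library left out.

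Among the named genes, signs turned, or the difference went to 0, for markers of other tissues, and the cause was not tested. Of all called genes, 8 increased and 9 decreased had the opposite sign without Tsc2 KO 1 and 2 and controls 1 and 2. Without controls 1 and 2 alone 5 decreased genes did. Without Tsc2 KO 1 and 2 log2 fold changes were 0 for Cyp11b1, which had no sign then, -3.63 for Cyp11a1, -0.726 for Star, -1.77 for Mc2r and -0.258 for Akr1b7. With controls 1 and 2 out too they were 0 for Cyp11b1, -3.35 for Cyp11a1, -0.777 for Star, -0.241 for Akr1b7, 9.37 for Retn and 4.19 for Car3. Without controls 1 and 2 alone Retn was at 8.51 and Car3 at 3.06. The adrenal covariate gave -0.326 for Star, -0.141 for Mc2r and -0.439 for Akr1b7, the 4 libraries out gave -0.73, -1.77 and -0.26, and Akr1b7 ran from -0.431 (without Tsc2 KO 1) to 6.64 (without Tsc2 KO 2).

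The replicate numbers share only a number: deviations of same-numbered libraries correlated at -0.103, -0.00663 and -0.2 over 12710 genes. With the replicate block 1964 genes increased, 2009 decreased and 56 differed between cohorts. A planned covariate for sex was not run, since all 30 libraries were female by their expression. With 3 mice per group, spread between mice limits small differences, and genes under 5 FPKM were not called.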

Other observations

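Of 15 iron and haem genes that reached the minimum 6 increased and 4 decreased, beside 23.8% and 24.6% of all genes. The same shares of all genes stand beside the NRF2 targets below. Hmox1, which breaks down haem, stood at 14.3, 6.68 and 10.2 FPKM in the controls and at 51.7, 59.6 and 72.2 in the Tsc2 KO kidneys (log2 fold change 2.55 ± 0.32, edgeR adjusted p = 1.32e-05). Haemoglobin transcripts, summed, were at 199 to 298 FPKM in the controls and 14.1 to 86.5 in the Tsc2 KO kidneys. Among NRF2 targets, to which Hmox1 also belongs, 4 increased and 9 decreased of 23, 2 and 7 with Tsc2 KO 3 alone, and Nqo1 and Gclc did not pass the test, with edgeR adjusted p of 0.50 and 0.93.

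Immediate early genes had 9 increases and 1 decrease of 16 (median log2 fold change 1.04), beside 23.8% and 24.6% of all genes. These shares also stand beside the complement and ribosome biogenesis lists below. Atf3, a stress-induced factor, rose from 0.984 ± 0.307 to 6.74 ± 1.40 FPKM (SD, n = 3). The numbers fell to 2 and 1 with Tsc2 KO 3 alone, where the median was 0.89. Junb and Jund, subunits of AP-1, were then not called, at log2 fold changes of 1.87 and 1.45 against 1.96 and 1.495 with all libraries (edgeR adjusted p = 0.152 and 0.0663 against 0.0224 and 0.0047). Fos and Egr1 did not pass the test, with edgeR adjusted p of 0.18 and 0.26. Complement and chemokine genes had 6 increases and 1 decrease of 14, and 4 and 1 with Tsc2 KO 3 alone (median log2 fold change 0.86, then 0.60). Cxcl16 rose from 10.7 ± 1.56 to 32.7 ± 1.11 FPKM, and Cxcl12, a chemokine of stromal and tubule cells, fell from 16.8 ± 4.14 to 3.95 ± 2.37. Ribosome biogenesis genes had 6 increases and 2 decreases of 18 (median log2 fold change 0.23). Their calls were lost with Tsc2 KO 3 alone, where the median was 0.13.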
